A study of Mus musculus with 2 samples.

Results

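The conjugating enzymes of the liver attach a water-soluble group to drugs, hormones, bile acids and reactive by-products so that they can be exported. Genes were chosen by symbol and comprised the glutathione S-transferases (Gst and Mgst genes), the UDP-glucuronosyltransferases (Ugt) and the cytosolic sulfotransferases (Sult). Of 18193 genes with a probe set annotated to 1 gene, 48 belonged to these families, on 62 probe sets, and the brightest probe set of a gene stood for it. Liver RNA of mice was measured on 2 Affymetrix arrays, 1 for each group, and each array received labelled RNA pooled from 3 livers. One group had been given antagomir-122, a cholesterol-linked oligonucleotide complementary to the hepatocyte microRNA miR-122. The other had been given mm-antagomir-122, the scrambled control. Both received 80 mg per kg body weight on each of 3 days, and livers were taken 24 h after the third dose. The strain, sex and age of the mice are not given in the sources used here. Pooling leaves no measure of the spread between animals, and no untreated group was analysed here.

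Each family has its own donor. Glutathione S-transferases join the tripeptide glutathione to electrophiles, UDP-glucuronosyltransferases of the endoplasmic reticulum transfer glucuronic acid from UDP-glucuronic acid, and sulfotransferases transfer sulfate from the donor PAPS. Hepatocytes carry high levels of some enzymes of each family. Many of the genes respond to the factors NRF2, CAR, PXR and AhR, and the members within a family lie in clusters of closely related copies. The question here was whether these families, and the classes within them, differed between the antagomir-122 and the mm-antagomir-122 pool.

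The values were MAS5 signal intensities, scaled by the authors to the same trimmed mean on both arrays (500.0). A gene was read only where the geometric mean of its signals reached 238, the 60th percentile of all non-control probe sets, called the floor here. Of the 48 genes, 37 reached it, and 10003 of all 18193 genes did. The log2 ratio is that of the antagomir-122 signal over the mm-antagomir-122 signal, and a difference of 1.5-fold was used to describe its size. With 1 array per group no test was possible and no value has an error between animals. The only view of measurement error came from genes with another probe set above the floor, whose probe sets had ratios with a spread of 0.28 on the log2 scale (SD of the difference over the square root of 2, 3860 genes). The spiked hybridization controls had a median log2 ratio of -0.27 over 18 probe sets. Scaling on them would add 0.27 to every ratio and move the median of all genes from 0.00 to 0.28, so every direction below is relative to the bulk of the genes as deposited.

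The conjugating enzymes differed little in size between the pools, and most of the ratios were slightly below 0. As deposited 28 of 37 members (75.7%) had a ratio below 0, against 49.6% of all 10003 genes, and scaled on the hybridization controls 10 members (27.0%) did, against 15.9%. The median of the members was -0.17, or 1.13-fold lower, beside 0.00 for all genes, and it turned to 0.10 beside 0.28 after that scaling. Past 1.5-fold, 0 members were higher and 1, Gsta4, was lower. Over all genes above the floor the shares past 1.5-fold were 5.12% higher and 2.62% lower. One of 37 is a share near that background. Of the members, 26 had a ratio smaller in size than the spread between probe sets. The middle 50% of all genes held 19 of the members, while 15 lay below it and 3 above it.

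**Figure D1:**
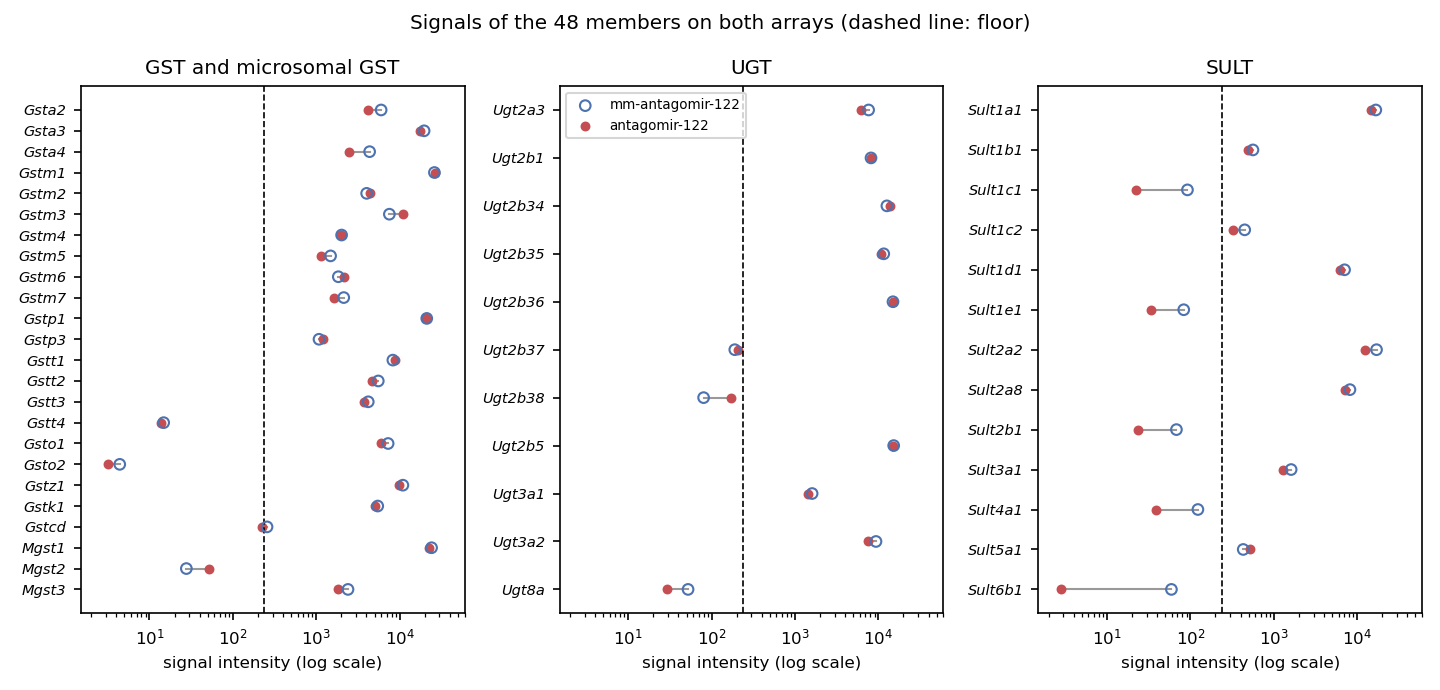
Signal intensity (log axis) of the 48 genes on the antagomir-122 array (filled red points) and the mm-antagomir-122 array (open blue circles), by family; the dashed line is the floor at 238. The points of each of the 37 genes above the floor lie close together, with the widest gap for Gsta4, and the 11 genes under the floor run from 2.8 to 206.

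The families can be set beside the enzymes that act before them. The 41 cytochrome P450 genes of families 1 to 4 above the floor, which oxidise many of the same compounds, had a median log2 ratio of -0.01, with 3 higher and 2 lower past 1.5-fold. The 10 carboxylesterase genes above the floor had a median of 0.14, with 1 higher past 1.5-fold. Over all genes above the floor, 5.12% were higher and 2.62% lower past 1.5-fold. In the P450 and carboxylesterase groups 22 of 41 and 4 of 10 ratios lay below 0. The shares below 0 were 75.7% (28 of 37) among the conjugating enzymes and 49.6% over all genes above the floor. The differences between these shares were not tested.

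Among the glutathione S-transferases the alpha and mu classes held the widest ratios, on opposite sides of 0. The alpha class conjugates products of lipid peroxidation and also acts as a peroxidase. Gsta4, the enzyme best known for clearing hydroxynonenal, had a signal of 2455 in the antagomir-122 pool and 4367 in the mm-antagomir-122 pool. It was 1.78-fold lower (log2 ratio -0.83), at percentile 0.72 of the ratios of all genes above the floor. This gene had 1 probe set. Its ratio stayed below 0 in every scaling tried, from -0.89 with median centring to -0.56 when scaled on the hybridization controls. The control scaling was the only scaling to bring it under 1.5-fold. Floors and probe set choices could not change the ratio, since the gene's only probe set carries no suffix.

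The other alpha genes were also lower as deposited. Gsta2 had signals of 4190 and 6002, a 1.43-fold difference (log2 ratio -0.52). A probe set annotated to Gsta1, Gsta2 and Gm3776 together, and so outside the chosen genes, had 2883 and 4919.5, or 1.71-fold lower. Gsta3, known in mice for detoxifying the epoxide of aflatoxin, had signals of 17403 and 19662, with log2 ratios of -0.18 and -0.21 on its probe sets. The median of the 3 alpha genes was -0.52, and it was -0.24 when scaled on the hybridization controls, where Gsta3 lay at 0.10. Alpha transcripts are close copies, so signal may be shared among them.

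The mu class ran from -0.39 to 0.54 with a median of 0.03, which turned to -0.03 with median centring, and 4 of 7 genes were above 0. Gstm3, a mu enzyme inducible in mouse liver, had signals of 10992 in the antagomir-122 pool and 7535 in the mm-antagomir-122 pool. It was 1.46-fold higher (log2 ratio 0.54, percentile 93.8), and its second probe set gave 3383 and 2291, a log2 ratio of 0.56. The brighter probe set carries the suffix _s, which marks probes shared with other transcripts, and the second does not. Gstm3 was past 1.5-fold with quantile normalization (0.64), loess correction (0.62) and scaling on the hybridization controls (0.82). Gstm6 had 2137 and 1840.4 (log2 ratio 0.22), and Gstm2 had 4458 and 4024 (0.15). Gstm1, the main mu enzyme of the liver, had 26706 and 26138 (0.03), where the top of the signal range can hide a difference, and its other probe sets had 0.04, 0.12 and 0.22. Gstm4 had 1978 and 2015 (-0.03). On the other side, Gstm7 had 1628 and 2138 (-0.39) and Gstm5 had 1149.7 and 1486 (-0.37). Probe sets of Gstm7 disagreed, since a dimmer one had 463 and 380.0 (0.29), and their mean was -0.05. In these arrays, then, the mu class had no common direction, and its members with the largest ratios lay on both sides of 0.

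The mu genes are neighbours on 1 chromosome. In the order of the RefSeq table they run Gstm5, Gstm7, Gstm6, Gstm3, Gstm2, Gstm1 and Gstm4. Their log2 ratios in that order were -0.37, -0.39, 0.22, 0.54, 0.15, 0.03 and -0.03. Both genes with ratios under -0.3 thus stood side by side at one end, and Gstm3 stood in the middle. This pair rests on the brightest probe set of Gstm7, since the mean over the probe sets of that gene was -0.05. With 7 genes and 1 array per pool this is a description of the order only.

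The stretches of 250 bases before the transcription start are shown for Gstm3 and Gstm5, genes of this cluster with ratios on opposite sides of 0, and for Gsta3 of the alpha class. Sequences are from RefSeq (GRCm38.p6), written 5′ to 3′ on the strand of the gene, and capitals mark the core of the antioxidant response element, TGACNNNGC, which NRF2 is known to bind. The Gstm5 stretch is chr3:107895604-107895853 on the plus strand, with the core starting 42.0 bases before the start. The Gstm3 stretch is chr3:107969175-107969424 on the minus strand, and no copy of the core was found in it. The Gsta3 stretch is chr1:21240335-21240584 on the plus strand, with the core starting 121.0 bases before the start.
Gstm5: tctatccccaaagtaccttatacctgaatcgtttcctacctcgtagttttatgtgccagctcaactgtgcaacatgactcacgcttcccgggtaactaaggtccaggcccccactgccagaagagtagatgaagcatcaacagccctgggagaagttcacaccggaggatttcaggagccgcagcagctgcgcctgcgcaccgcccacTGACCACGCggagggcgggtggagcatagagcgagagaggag
Gstm3: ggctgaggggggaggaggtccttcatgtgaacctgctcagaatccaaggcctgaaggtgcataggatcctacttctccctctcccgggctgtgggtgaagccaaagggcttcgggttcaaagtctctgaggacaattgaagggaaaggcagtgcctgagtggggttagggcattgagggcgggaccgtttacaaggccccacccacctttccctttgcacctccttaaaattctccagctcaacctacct
Gsta3: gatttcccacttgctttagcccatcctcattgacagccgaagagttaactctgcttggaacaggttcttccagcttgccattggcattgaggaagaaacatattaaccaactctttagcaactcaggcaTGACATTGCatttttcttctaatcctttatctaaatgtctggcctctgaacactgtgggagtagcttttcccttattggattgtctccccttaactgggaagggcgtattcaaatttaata
Of the 43 chosen genes with an entry in the promoter table, 4 (9.3%) held the core on either strand, against 11.5% of all 27025 genes of the table. These were Gsta3, Gstm5, Mgst1 and Gstm7, with Mgst1 and Gstm7 each holding it at 1 of 2 annotated starts. Their log2 ratios as deposited were -0.18, -0.37, -0.08 and -0.39, where 75.7% of all members above the floor lay below 0. Genes without the core in the stretch included Gsta2 (-0.52) and Gstm3 (0.54). A link between the core and the ratio was not tested. The match is of letters only, and the arrays hold no measurement of binding.

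**Figure D2:**
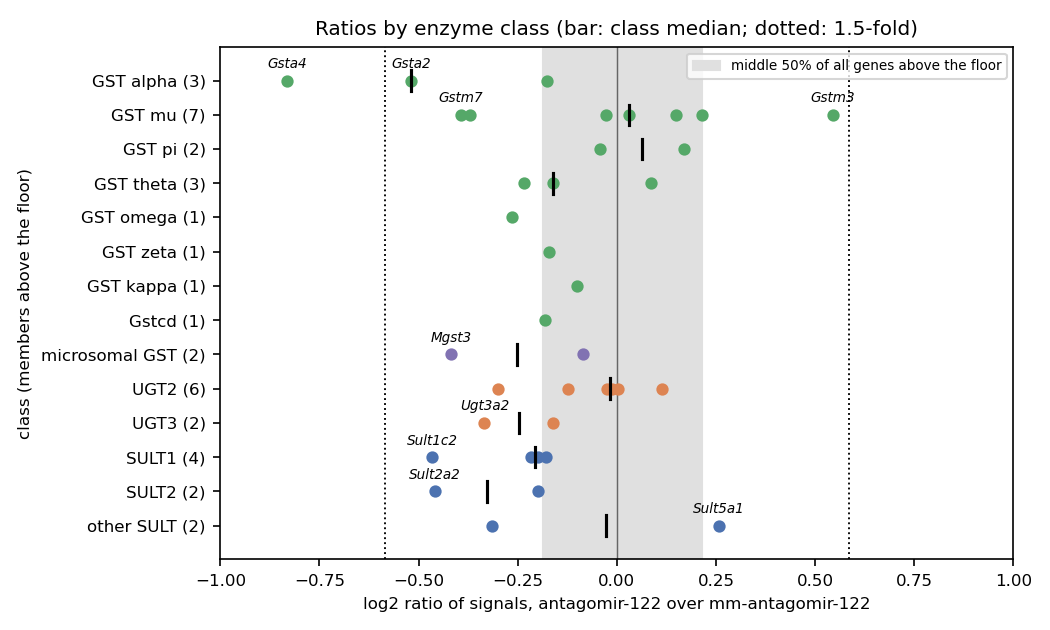
Log2 ratio of signals, antagomir-122 over mm-antagomir-122, of the 37 genes above the floor, by class, with the number of genes in parentheses. Bars are class medians, the grey band is the middle 50% of all genes above the floor, and dotted lines mark 1.5-fold; Gsta4 is the only point outside the dotted lines, and adding 0.27 for scaling on the hybridization controls would put it inside them and Gstm3 outside.

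The remaining soluble glutathione S-transferases lay between -0.27 and 0.17 on their brightest probe sets. Gstp1, the pi enzyme that is abundant in the liver of male mice, had 20555 and 21162 (log2 ratio -0.04), and Gstp3 had 1214 and 1079.6 (0.17). Of the theta class, which acts on halogenated compounds, Gstt1 had 8817 and 8299.6 (0.09), Gstt2 had 4712 and 5546 (-0.24) and Gstt3 had 3762 and 4205 (-0.16). Gsto1, the omega enzyme, which also reduces dehydroascorbate, had 6056 and 7279 (-0.27), and its other probe set had 5398 and 7639 (-0.50). Gstz1, the maleylacetoacetate isomerase of tyrosine breakdown, had 9726 and 10944 (-0.17). Gstk1, a mitochondrial and peroxisomal enzyme, had 5095 and 5464 (-0.10). Gstcd carries a glutathione S-transferase domain and lay at the floor, with 227 and 257 (-0.18). Over all 19 soluble genes above the floor the median was -0.16, which moved to -0.09 with loess correction and to 0.11 when scaled on the hybridization controls.

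The microsomal enzymes are membrane proteins of a separate family. Mgst1, the abundant one in liver, had 22794 and 24172 (log2 ratio -0.08). Mgst3, which also has peroxidase activity, had 1799.5 and 2404, or 1.34-fold lower (-0.42). Its second probe set, under the floor, had 165 and 183. A second probe set of Mgst1, also under the floor, had 151 and 103. Mgst2, linked to leukotriene synthesis, was under the floor with 51.1 and 27.7.

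The glucuronosyltransferases differed by at most 1.26-fold as deposited. The median of 8 genes above the floor was -0.07, which turned to 0.20 when scaled on the hybridization controls and to 0.0055 with loess correction, and all 8 ratios lay between -0.33 and 0.11. The UGT2 enzymes glucuronidate steroids, bile acids and many drugs, and 6 of them were above the floor with a median of -0.02, which turned to 0.063 with loess correction and 0.057 with quantile normalization. Ugt2b36 had signals of 14837 and 14969 (-0.01), Ugt2b5 had 15017 and 15266 (-0.02) and Ugt2b1 had 8184 and 8161 (0.00). Ugt2b34 had 13687 and 12653 (0.11), with 0.10 on a second probe set, and Ugt2b35 had 10659 and 11603 (-0.12). These 5 genes of the Ugt2b group lay within 1.09-fold in either direction. Ugt2a3 had the widest ratio of the class, with 6210.4 and 7642, or 1.23-fold lower (-0.30).

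The UGT3 enzymes use sugars other than glucuronic acid. Ugt3a2 had 7431 and 9365, or 1.26-fold lower (log2 ratio -0.33). Ugt3a1 had 1436 and 1605 (-0.16), with -0.09 on its second probe set. Scaled on the hybridization controls Ugt3a2 stayed below 0 (-0.06) and Ugt3a1 did not (0.11).

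The UGT1 enzymes, which include the bilirubin-conjugating enzyme Ugt1a1, share their last exons, and no probe set was annotated to 1 of them alone. The 3 probe sets annotated to 8 Ugt1a genes together had signals of 27194 and 26637 (log2 ratio 0.03), 19935 and 20200.5 (-0.02), and 18203 and 17447 (0.06). At this brightness the top of the signal range can hide a difference, and a difference in 1 gene could be masked by the others. A probe set shared by Ugt2a1 and Ugt2a2 had 129 and 115, under the floor.

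The sulfotransferases were below 0 in 7 of 8 genes above the floor as deposited, against 49.6% of all genes above the floor. The amounts were small, with a median of -0.21 that turned to 0.07 when scaled on the hybridization controls. The other 29 conjugating enzymes had a median of -0.12, with 21 below 0. Sult2a2, of the class that sulfates bile acids and hydroxysteroids, had 12444 in the antagomir-122 pool and 17094 in the mm-antagomir-122 pool, or 1.37-fold lower (-0.46). Sult2a8, a bile acid sulfotransferase, had 7145 and 8203 (-0.20). Sult1c2 had 325 and 449, not far above the floor, or 1.38-fold lower (-0.47).

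The other 5 sulfotransferases lay between -0.32 and 0.26. Sult1a1, the main enzyme for phenols, had 14603 and 16758 (log2 ratio -0.20). Sult1b1, which acts on thyroid hormones, had 485 and 563 (-0.22). Sult1d1, which acts on catecholamines, had 6245 and 7070.0 (-0.18), with -0.28 on its second probe set. Sult3a1, a gene higher in female than in male mouse liver, had 1299.7 and 1617 (-0.32). The exception was Sult5a1, with 515 and 431 (0.26). Scaled on the hybridization controls, 3 of the 8 remained below 0, namely Sult1c2 (-0.19), Sult2a2 (-0.18) and Sult3a1 (-0.04).

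Genes of 2 families share 1 cluster. In the RefSeq order the Ugt2b and Ugt2a genes are followed by Sult1b1, Sult1d1 and Sult1e1. Along it the ratios above the floor were 0.11 for Ugt2b34, 0.00 for Ugt2b1, -0.12 for Ugt2b35, -0.01 for Ugt2b36, -0.02 for Ugt2b5, -0.30 for Ugt2a3, -0.22 for Sult1b1 and -0.18 for Sult1d1. The last 3 genes in this order had the lowest ratios. Ugt2b37, Ugt2b38 and Sult1e1 of the same cluster were under the floor.

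The 11 members under the floor on both arrays were Gsto2, Gstt4, Mgst2, Ugt2b37, Ugt2b38, Ugt8a, Sult1c1, Sult1e1, Sult2b1, Sult4a1 and Sult6b1. Several of them are known mainly from other tissues, such as Ugt8a, which makes galactosylceramide for myelin, and Sult4a1 of the brain. Their signals ran from 2.8 to 206, where a signal cannot be told from background without detection calls, and no fold is given.

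**Figure D3:**
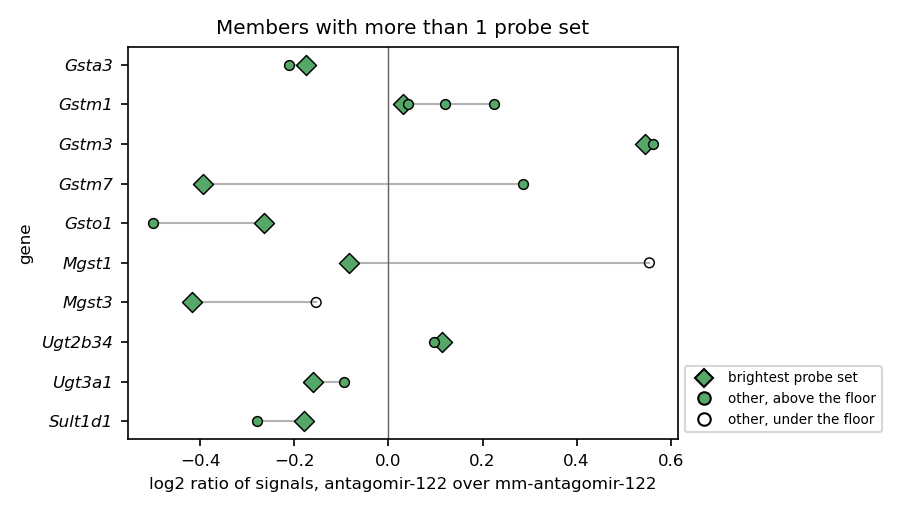
Log2 ratio of signals, antagomir-122 over mm-antagomir-122, of each probe set of the 10 genes above the floor that had more than 1; diamonds are the brightest probe set and open circles lie under the floor. The probe sets of Gstm3 coincide at 0.54 and 0.56, while those of Gstm7 lie at -0.39 and 0.29.

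Agreement between probe sets could be seen for 8 of the 37 genes, those with another probe set above the floor. In 7 of the 8 the brightest and the second had ratios of the same sign as deposited, and Gstm7 was the exception. Over all genes the signs were the same in 2403 of 3860. The spread was 0.19 for the 8 genes and 0.28 for all. The remaining genes, Gsta4 and Gsta2 among them, had no such check, and 9 of the 37 brightest probe sets carry a suffix (_a or _s) for probes shared between transcripts or genes.

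The lists of donor supply had medians on both sides of 0 as deposited. For glutathione, 11 of 14 listed genes were above the floor, with 1 at least 1.5-fold higher, 0 lower and a median log2 ratio of -0.02, which turned to 0.05 with loess correction, 0.02 with quantile normalization and 0.26 when scaled on the hybridization controls. Ggt5, a gamma-glutamyl transferase that breaks down glutathione conjugates, was 1.63-fold higher (750.2 and 459) on 1 probe set, whose suffix _x marks possible cross-hybridisation. Chac2, which degrades glutathione, had 1588 and 2041 (-0.36), and Cbs, of the route from methionine to cysteine, had 3217 and 4119 (-0.36). For UDP-glucuronic acid all 8 listed genes were above the floor, with 0 higher and 1 lower past 1.5-fold and a median of -0.17 that turned to 0.11 with the control scaling. That one was Ugcg, which uses UDP-glucose to make glucosylceramide and not glucuronic acid, with 548 and 885 (-0.69), and its other probe sets had -0.23 and -0.82. Ugdh, the enzyme that makes UDP-glucuronic acid, had 6704 and 5723 (0.23), and Pgm1 had 4311 and 5195 (-0.27), with a dim second probe set at 0.26.

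For sulfate, 10 of 12 listed genes were above the floor, 0 were past 1.5-fold and the median was 0.09. Bpnt1, which clears the by-product of sulfation, had 2262 and 1764 (log2 ratio 0.36) on one probe set and -0.05 on another. The sulfatase gene Arsa had 1337 and 1809 (-0.44), and the sulfate transporter gene Slc26a1 had 2268 and 2678 (-0.24). PAPS synthase Papss2, named after its value was seen, had 9702 and 8633 (0.17), while its 2 dimmer probe sets had -0.16 and -0.05.

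A list of other conjugating enzymes, most of which methylate, acetylate or join amino acids, was also mostly below 0 as deposited. It also held the epoxide hydrolases Ephx1 and Ephx2, which do not conjugate. Both were named after their values were seen and had -0.10. Of 16 genes above the floor among 19 listed, 14 were below 0 (87.5%), these hydrolases included, against 49.6% of all genes above the floor. The list had 0 past 1.5-fold and a median of -0.11 that turned to 0.17 with the control scaling. With loess correction its median was -0.04 with 12 of 16 below 0, and with quantile normalization -0.04 with 13. Acsm5, an acyl-CoA synthetase, had 1814 and 2692 (log2 ratio -0.57), and Pemt, which makes phosphatidylcholine by methylation, had 7999 and 9804 (-0.29). Tpmt, a thiopurine methyltransferase, had 1143 and 1427 (-0.32), but its 4 probe sets above the floor ran from -0.32 to 0.30.

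The lists of responsive genes outside the families had medians on both sides of 0 as deposited. Of 15 NRF2-responsive genes above the floor among 19 listed, 12 were below 0 (80.0%), against 49.6% of all genes above the floor. The list had 0 past 1.5-fold and a median of -0.13 that turned to 0.14 with the control scaling. Me1, the malic enzyme, had 3086 and 4613 (log2 ratio -0.58) with 0.08 on a second probe set. Gclc, the catalytic subunit of glutathione synthesis, had 5936 and 7451 (-0.33), and Txnrd1, a thioredoxin reductase, had 3103 and 3860.0 (-0.32). Of 10 CAR and PXR responsive genes above the floor among 12 listed, 2 were at least 1.5-fold higher and 0 lower. Over all genes above the floor those shares were 5.12% and 2.62%. The median of the list was 0.25 as deposited and 0.19 to 0.52 over the 4 other scalings. Cyp2c55 had 1551 and 789.9, or 1.96-fold higher. Cyp2b10 was 1.54-fold higher, with log2 ratios from 0.63 to 0.72 on its 3 probe sets, and the carboxylesterase gene Ces2a had 11722 and 8789 (0.42). The 4 AhR-responsive genes above the floor of 6 listed had a median of 0.13, with 0 past 1.5-fold. Cyp1a1, Cyp1a2 and Nqo1 had log2 ratios of 0.40, 0.15 and 0.11. Cyp1a1 was dim (378 and 286), and Cyp1a2 lay near the top of the signal range (26339.6 and 23679.7). Tiparp, named after its value was seen, had -0.06, with -0.20 and -0.27 on dimmer probe sets. The NRF2 and CAR lists share Abcc2 and Abcc3, and Gclc, Gclm and Txnrd1 also stand in the glutathione list. Nqo1 stands in both the NRF2 and the AhR list, and Ephx1 in the NRF2 list and that of other conjugating enzymes.

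The regulators themselves had a median of 0.00 over 16 of 18 listed genes, with 1 at least 1.5-fold higher and 0 lower. That one was Nfe2l1, a relative of NRF2, with 2238 and 1208, or 1.85-fold higher (log2 ratio 0.89) on its only probe set above the floor. Nfe2l2, the gene of NRF2, and its inhibitor gene Keap1, both named after their values were seen, had 0.09 and -0.02 on their brightest probe sets, and a second of Keap1 had 664 and 861 (-0.37). Mafk, a partner of NRF2, had 320 and 472 (-0.56). Ahr had 2968 and 2227 (0.41), with 0.58 on a second probe set.

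**Figure D4:**
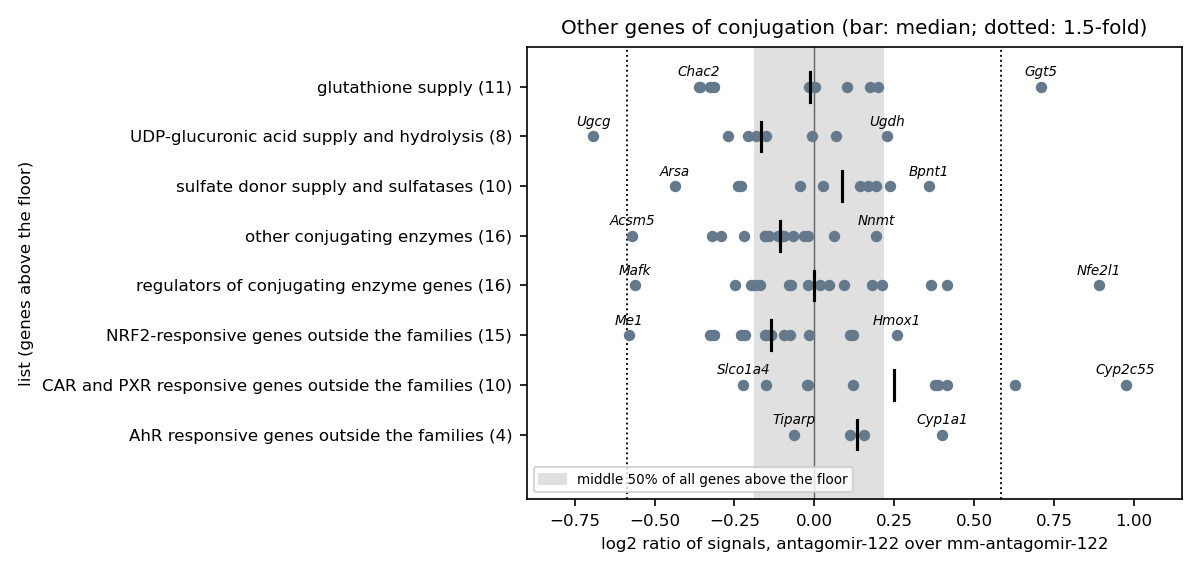
Log2 ratio of signals, antagomir-122 over mm-antagomir-122, of genes above the floor in 8 lists around the conjugating enzymes, with the number of genes in parentheses; bars are list medians, the grey band is the middle 50% of all genes and dotted lines mark 1.5-fold. Cyp2c55, Nfe2l1 and Ggt5 lie highest and Ugcg lowest as deposited; scaling on the hybridization controls would shift every point up by 0.27.

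The RNA came from whole liver, where a lower share of hepatocytes and less RNA per hepatocyte cannot be told apart. Hepatocyte markers were among the brightest signals on both arrays, with a median log2 ratio of -0.02 over 9 of 12 genes and summed signals of 212908 and 211131. For most of them the top of the signal range can hide a difference. Tat and Hnf4a, less bright and named after their values were seen, had -0.02 and -0.07. Dimmer probe sets of Hnf4a had -0.20, -0.16 and -0.15. The 12 Kupffer cell and macrophage markers were all above 0 with a median of 0.40 and summed signals of 73842 and 55902. Neutrophil markers had 1.28 over 7 of 8 genes and lymphocyte markers 0.59 over 6 of 10. The summed signals were 35396 and 26624 for neutrophil markers, and 6526 and 3964 for lymphocyte markers. Lcn2 alone supplied most of both neutrophil sums, with 27382 and 24173 (log2 ratio 0.18). Elane had 261 and 323 (-0.31), the only neutrophil marker above the floor with a ratio below 0. Both were named after their values were seen. Endothelial, stellate and cholangiocyte markers had medians of 0.04 over 10 of 10 genes, 0.08 over 8 of 8 and 0.27 over 2 of 8. The part of these cells in the ratios of the conjugating enzymes was not tested. Since several of these enzymes differ between liver zones, zone markers were also read. Markers of the hepatocytes around the central vein had a median of 0.01 over 12 genes, and those around the portal vein -0.11 over 9 of 12. Of the latter 1 was past 1.5-fold, Ass1, on a dim probe set (245 and 531).

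**Figure D5:**
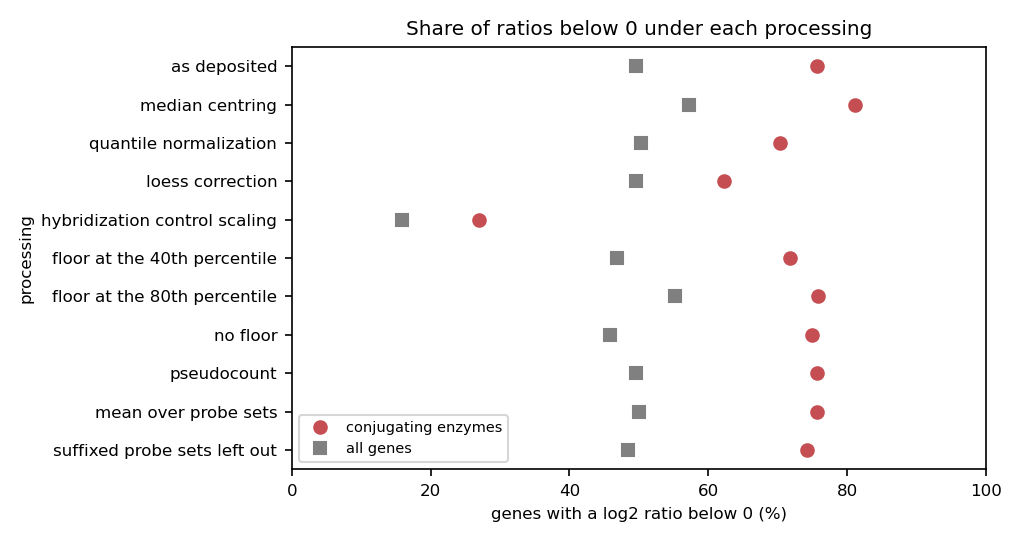
Share of genes with a log2 ratio below 0 (%) among the conjugating enzymes (red points) and all genes (grey squares) under each processing. The red point lies to the right of the grey square in every row, at 75.7% and 49.6% as deposited, 62.2% and 49.6% with loess correction, and 27.0% and 15.9% when scaled on the hybridization controls.

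Loess correction, which removes a trend of the ratio with signal, narrowed the gap between the conjugating enzymes and all genes. It left 62.2% of the members and 49.6% of all genes below 0, with a median of -0.10 for the members. Without any correction, genes with a geometric mean signal of 1000 or more had 57.7% of ratios below 0 over 4143 genes and a median of -0.04. The 33 members at that level had 75.8% below 0 and a median of -0.16. The 4 members with both signals above 16000, Gsta3, Gstm1, Gstp1 and Mgst1, had a median of -0.06, and the other 33 had -0.18.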

How the data were processed

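Liver RNA pooled from 3 mice per group was measured on 2 single-colour Affymetrix arrays, with groups taken from the sample titles. The authors deposited signal intensities on a linear scale. Per the submitters' processing notes they came from MAS5, and they had been scaled to a 2% trimmed mean of 500.0 on both arrays. Detection calls and a genome build were not used here. Of 45101 probe sets, 34945 had 1 gene in the platform annotation, and symbols were looked up in the RefSeq table, which changed 0 of them.

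Each gene was represented by the probe set with the highest geometric mean of both arrays, without pseudocount. Genes under the 60th percentile of mean log2 signal were set apart. Alternatives were median centring, quantile normalization, loess (span 0.3), scaling on hybridization controls, floors at the 40th and 80th percentile, no floor, a pseudocount of 16.0, mean over probe sets, leaving out suffixed probe sets, and thresholds of 1.4-fold and 2-fold. No test was run, since each group had 1 array. Calculations used Python 3.11.15, pandas 2.3.3 and statsmodels 0.14.6, and were checked on simulated data.

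The members and lists were chosen with earlier results of these data known. Named were all members above the floor, the up to 3 genes of each list with the largest ratios, and others where marked.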

Additional observations from a re-analysis of the deposited data

How the results depend on the processing

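No paired analysis was possible because each group had 1 array. Scaling on the hybridization controls adds 0.27 to every ratio. It left 10 members below 0 in place of 28, and 1 was at least 1.5-fold higher (Gstm3) and 0 lower. The class medians then were -0.24 for alpha, 0.31 for mu, 0.34 for pi, 0.11 for theta, 0.023 for microsomal, 0.26 for UGT2, 0.027 for UGT3, 0.068 for SULT1, -0.054 for SULT2 and 0.25 for the other sulfotransferases. The family medians were 0.11 for GST, 0.20 for UGT and 0.067 for SULT. Loess correction put that of GST at -0.091. With quantile normalization, loess correction or a threshold of 1.4-fold, 1 member (Gstm3) was higher. At 1.4-fold 2 were lower (Gsta2 and Gsta4), and at 2-fold 0 were. A floor at the 40th percentile gave 1 higher (Ugt2b38). Without a floor 2 were higher and 7 lower, the added genes all having signals under 238, and the medians were -0.46 for SULT and -1.002 for the other sulfotransferases. A floor at the 80th percentile left Sult3a1 alone in that class (-0.32). With the mean over probe sets, only the 8 members with another probe set above the floor could move. Of all 37 single members, 36 moved by less than 0.28 there, the exception being Gstm7 (-0.05). All members read did so under every other setting. These were 37, except 33 with the floor at the 80th percentile and 31 without suffixed probe sets. A change of floor cannot move a ratio, and the control scaling moves each by the same 0.27. For these settings the outcome was therefore fixed and is no check of the ratios. It was also fixed for genes with 1 probe set above the floor under the mean over probe sets. Leaving out suffixed probe sets could move only genes whose brightest probe set carries a suffix. Signs changed for 18 of 37 members when scaled on the hybridization controls, 5 with loess correction, and 2 each with quantile normalization and median centring. Signal near background limits the 11 members under the floor, and brightness near the top of the range limits the UGT1 probe sets and the 4 members above 16000 on both arrays (Gsta3, Gstm1, Gstp1 and Mgst1).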
